A study of Mus musculus with 6 samples.

Results

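The 40 genes described here act at the entry into S phase and at the replication fork. They were listed by name from mouse genes known for these roles, and all 40 were found among the 34981 genes of the deposited table. RNA was sequenced from spheroids of B16F10, a mouse melanoma cell line, which had been seeded at 500 cells in 50 µl of Matrigel (a basement membrane extract) at 7 mg/ml. The spheroids received 100 ng/ml of BMP2, a bone morphogenetic protein, or PBS, a buffered saline, for 10 days. Each of 3 batches holds 1 library of either group, numbered here by its batch (BMP2 1 and PBS 1 are batch 1), and every library was made from 500 ng of total RNA. All cells are of 1 line, and the labels give no genetic change between the groups, so treatment is the labelled difference within a batch. Tyrp1, a pigment enzyme of melanocytes, was at 6348 to 12255 CPM (a scaled level explained below). Of 28 markers of other cell types, 18 had a mean under 0.1 CPM, among them Ptprc (leukocytes), Cdh5 (endothelium), Col3a1 (fibroblasts) and Epcam (epithelium). The other 10 were higher, up to means of 8.92 CPM for Vwf of the endothelial list, 5.47 for Postn of the fibroblast list and 3.39 for Cd68 of the leukocyte list, levels like that of the least abundant member, Orc1 (mean 3.46 CPM).

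Before a cell copies its DNA, the origin recognition complex, CDC6 and CDT1 load the ring-shaped helicase of MCM2 to MCM7 onto origins in G1. Cyclin E with its kinase and the E2F transcription factors then bring the cell into S phase, where CDC45 and the GINS complex switch the helicase on. Polymerases, the sliding clamp PCNA and its loader copy the strands, ribonucleotide reductase and thymidylate synthase supply the deoxynucleotides, and chromatin assembly factors restore nucleosomes behind the fork. In proliferating cells, melanoma cells among them, many of these genes are known E2F targets whose RNA peaks around the G1/S boundary, so their summed level is widely read as a sign of cells in or near S phase.

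Levels are given as CPM, estimated counts scaled to the size of the library as corrected by the trimmed mean of M values (TMM). Totals per library ranged from 27821911 to 36856498 estimated counts, lowest in BMP2 1 and highest in BMP2 3, and a member had 88 to 13044 counts in a library. PBS 1 stood apart from the other libraries, at -79.7 on the first principal component against -16.8 to 55.5, and had the lowest TMM factor (0.872 against 0.975 to 1.09). The 40 genes took 0.185% to 0.274% of the estimated counts before any scaling, lowest in PBS 2 and highest in BMP2 3. The fold changes are from edgeR's quasi-likelihood test over all 12929 genes that passed its filter on low counts, all 40 members among them. A gene is said to have risen or fallen only at a Benjamini-Hochberg adjusted p under 0.05. A second fit added the batch as a block, so that libraries are compared within their batch. For 12 members over 5% of exon bases lie opposite exons of another gene, and as the sources used here do not state the strand setting, reads of the pair cannot be told apart.

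No member rose or fell with BMP2. The count was 0 of 40 without the block, where 0.0464% of all tested genes passed, and 0 of 40 with it, where 0.735% passed. DESeq2's Wald test also called 0 of 40, against 1.01% of all tested genes at an adjusted p under 0.05. It named 1 member at an unadjusted p under 0.05, a threshold at which its share over all tested genes was not computed. At an unadjusted p under 0.05 edgeR named 0 members without the block (5.38% of tested genes) and 3 with it (17.0%), namely Tyms, Ccne1 and Blm. The members' log2 fold changes ran from -0.52 for Ccne1 to 0.77 for Tyms, with a median of 0.11 against 0.010 over all tested genes. With the block their median was 0.049. The median unadjusted 95% interval reached 0.62 to either side of the estimate without the block and 0.45 with it, so the interval of a typical member held changes of about that size in either direction. Leaving out 1 library moved the log2 fold change by over 1.5 times, or turned its sign, for 39 of the 40 members, Blm being the exception. A fold change near 0 passes that ratio with a small shift, and the share over all tested genes was not computed.

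**Figure D1:**
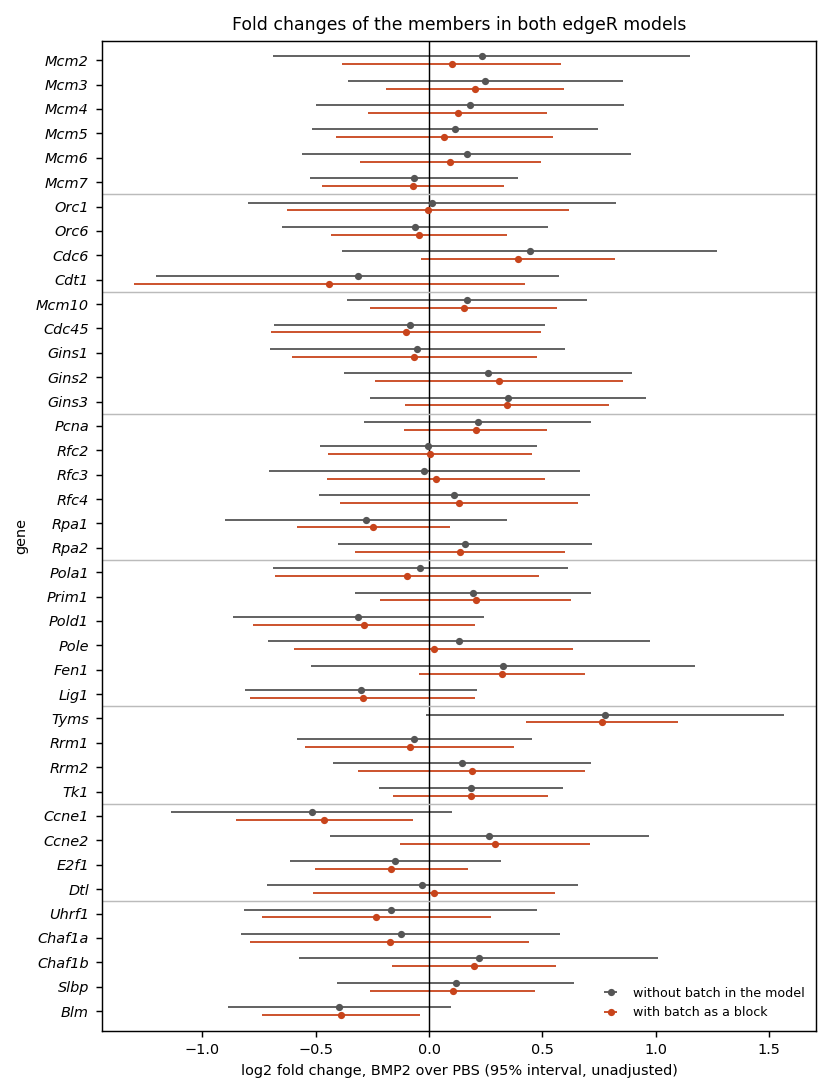
Log2 fold change of BMP2 over PBS (horizontal axis) for each of the 40 genes (vertical axis, in role groups), with unadjusted 95% intervals, from the edgeR model without batch (grey) and with batch as a block (orange). Most intervals span 0, and with the block those of Tyms, Ccne1 and Blm do not.

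Within batches the picture was uneven. Differences were taken as log2(CPM + 1) of BMP2 minus PBS in the same batch, with a pseudocount of 1 CPM. In batch 1, 8 of the 40 genes (20%) were higher with BMP2 and the median difference was -0.34. In batch 2, 29 (72.5%) were higher with a median of 0.12. In batch 3, 36 (90%) were higher with a median of 0.36. Over all tested genes 51.1%, 49.8% and 51.9% were higher in batches 1, 2 and 3. Of the members, 28 (70%) were lower in batch 1 and higher in batch 3, which held for 20.3% of all tested genes. With 1 library per group and batch, whether the treatment difference itself varied between batches was not tested.

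**Figure D2:**
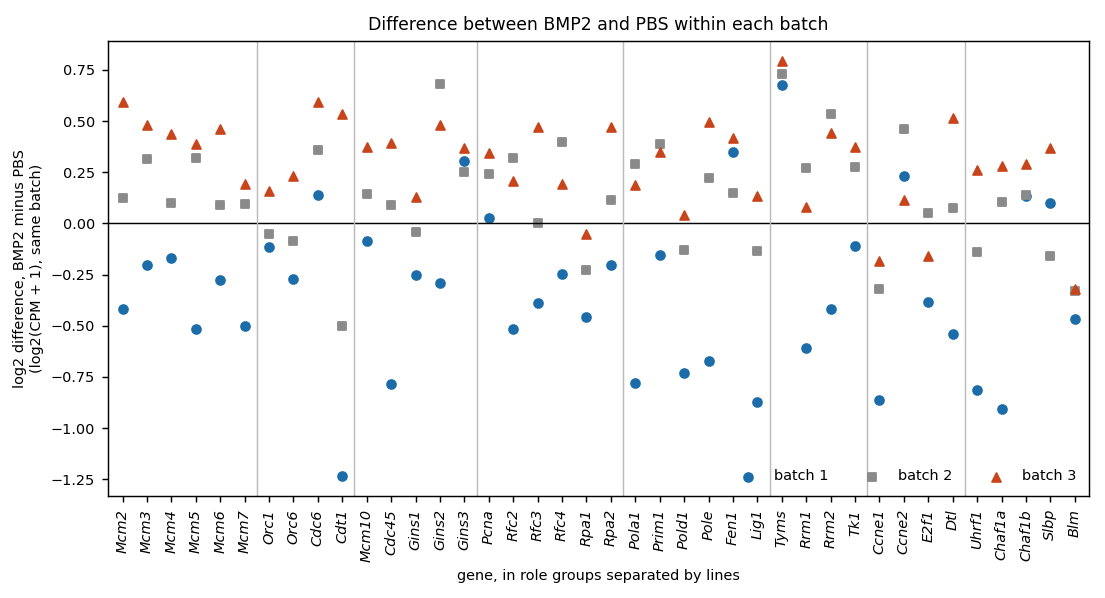
Difference in log2(CPM + 1) between the BMP2 and PBS library of the same batch (vertical axis) for each of the 40 genes (horizontal axis), with circles for batch 1, squares for batch 2 and triangles for batch 3. Circles lie below 0 for 32 genes and triangles above 0 for 36, with the 3 symbols of Tyms together near the top.

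A single direction in all 3 batches was seen for 10 members. Tyms, Cdc6, Gins3, Pcna, Fen1, Ccne2 and Chaf1b were higher with BMP2 each time, which is 7 of 40 against 22.7% of all tested genes. Ccne1, Blm and Rpa1 were lower each time, 3 of 40 against 21.1%. The 3 BMP2 values lay wholly below the 3 PBS values for 1 member, Blm, against 5.72% of tested genes, and wholly above them for 0 members, against 6.42%. None of these shares exceeded that of all tested genes.

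The highest level of a gene fell mostly in 2 libraries. BMP2 3 held the highest level for 24 of 40 genes (60%, against 23.5% of all tested genes) and PBS 1 for 14 (35%, against 29.7%). E2f1 was highest in BMP2 2 and Slbp in BMP2 1. The lowest level was spread over all 6 libraries, with BMP2 1 lowest for 18 (45%, against 14.8%) and PBS 2 for 9 (22.5%, against 10.9%). The summed level of the 40 genes was 1812, 2086 and 2522 CPM in BMP2 1, 2 and 3 and 2400.0, 1897 and 2053 CPM in PBS 1, 2 and 3, so the 2 groups overlapped. BMP2 1 was the least and BMP2 3 the most deeply sequenced library, and the part of depth in these levels was not tested. In such bulk RNA, fewer cells in S phase and less of these RNAs per cell cannot be told apart.

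**Figure D3:**
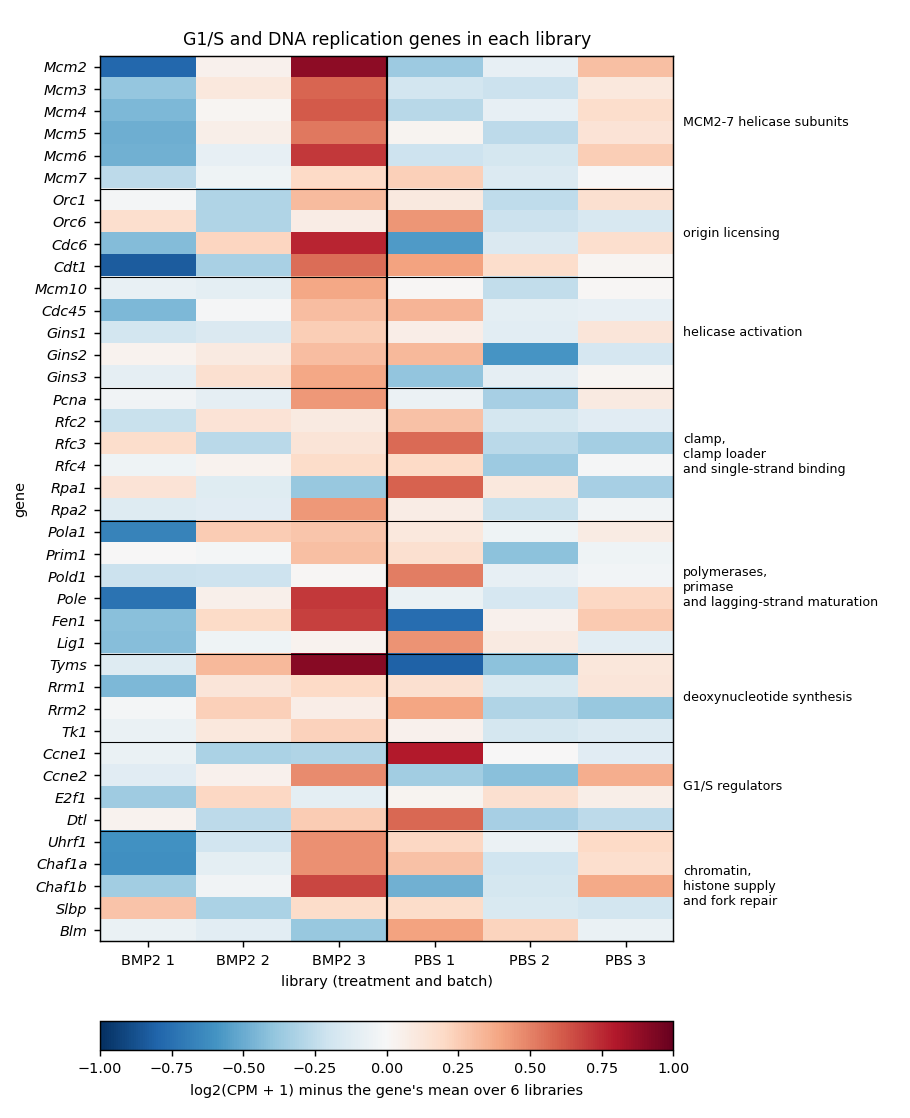
Level of each of the 40 genes (rows, in role groups) in each library (columns, BMP2 left and PBS right of the line), as log2(CPM + 1) minus the gene's mean over the 6 libraries, from blue (lower) to red (higher). BMP2 3 is mostly red and BMP2 1 mostly blue, and PBS 1 is red for Ccne1, Rpa1, Rfc3 and Dtl but blue for Tyms, Fen1 and Cdc6.

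E2F is the factor best known for these genes, so their promoters were searched for its words before the genes are taken up by role. A promoter here is the stretch from 250 bases before to 50 bases after the annotated start, from RefSeq on GRCm38.p6, and 34 of the 40 genes had an entry (Mcm4, Gins1, Gins2, Rfc2, Pole and Ccne2 had none). One of the E2F words TTTCCCGC, TTTCGCGC, TTTGCCGC and TTTGGCGC, read on both strands, stood in a promoter of 14 of the 34 genes (41.2%), against 4.70% of the 9594 tested genes with an entry. As 4 members have more than 1 entry, that is 14 of 39 member promoters (35.9%), against 2.26% of all 32851 promoters of the set. The genes with a word were Mcm3, Mcm5, Mcm6, Mcm7, Orc1, Cdc6, Cdt1, Gins3, Rfc3, Pola1, Pold1, Lig1, Dtl and Uhrf1. The word CCAAT, on either strand, was in a promoter of 23 of the 34 genes (67.6%) against 43.4% of the tested genes. The word TTTGAA, the core of the CHR element of late cell cycle genes, was in 4 of the 34 (11.8%) against 14.2%. Over single promoters CCAAT was in 64.1% and TTTGAA in 10.3% of the members', against 37.4% and 17.9% of all. Median GC content was 61.6% in the members' promoters and 61% in those of tested genes. A matching word is a description of the sequence and not a measured binding site.

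The promoters below show such words in the 5 genes holding one that had the smallest p with the block: the loader Cdc6 (chr11:98907901-98908200, plus strand), the GINS subunit Gins3 (chr8:95633309-95633608, plus), the ligase Lig1 (chr7:13278576-13278875, plus), the polymerase subunit Pold1 (chr7:44548766-44549065, minus) and the helicase subunit Mcm3 (chr1:20820263-20820562, minus). Each is written 5′ to 3′ along the gene, and capitals mark the E2F words.
Cdc6: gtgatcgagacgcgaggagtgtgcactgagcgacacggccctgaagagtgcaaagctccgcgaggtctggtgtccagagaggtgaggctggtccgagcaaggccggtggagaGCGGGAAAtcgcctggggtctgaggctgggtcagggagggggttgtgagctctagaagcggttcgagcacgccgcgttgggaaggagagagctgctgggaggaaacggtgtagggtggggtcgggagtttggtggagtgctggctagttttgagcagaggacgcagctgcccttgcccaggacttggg
Gins3: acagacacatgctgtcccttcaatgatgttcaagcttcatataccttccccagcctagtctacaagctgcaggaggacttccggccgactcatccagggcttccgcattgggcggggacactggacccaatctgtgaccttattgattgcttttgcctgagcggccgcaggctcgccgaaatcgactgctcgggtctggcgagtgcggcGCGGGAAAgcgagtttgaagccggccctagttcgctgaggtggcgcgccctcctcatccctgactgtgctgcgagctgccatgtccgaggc
Lig1: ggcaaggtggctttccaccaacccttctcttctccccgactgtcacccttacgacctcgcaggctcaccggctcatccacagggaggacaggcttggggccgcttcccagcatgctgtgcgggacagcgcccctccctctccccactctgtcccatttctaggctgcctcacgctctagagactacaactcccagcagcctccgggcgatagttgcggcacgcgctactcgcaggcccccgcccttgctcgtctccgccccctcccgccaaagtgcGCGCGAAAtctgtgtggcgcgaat
Pold1: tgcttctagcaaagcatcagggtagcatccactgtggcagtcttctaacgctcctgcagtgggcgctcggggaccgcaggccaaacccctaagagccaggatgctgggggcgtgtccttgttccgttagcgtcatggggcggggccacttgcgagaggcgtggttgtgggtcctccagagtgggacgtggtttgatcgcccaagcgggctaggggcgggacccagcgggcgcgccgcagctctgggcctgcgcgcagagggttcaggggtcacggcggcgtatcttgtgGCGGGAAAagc
Mcm3: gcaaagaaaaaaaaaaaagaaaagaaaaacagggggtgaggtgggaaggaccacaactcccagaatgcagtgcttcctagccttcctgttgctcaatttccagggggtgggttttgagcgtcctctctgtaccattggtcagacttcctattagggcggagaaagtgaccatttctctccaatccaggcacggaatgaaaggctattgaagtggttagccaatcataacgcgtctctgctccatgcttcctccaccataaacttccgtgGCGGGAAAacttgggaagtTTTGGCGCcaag
Counted with the start site as base 1, the word of Cdc6 began at -138 and that of Gins3 at -41. In Lig1 it began at 27 and in Pold1 at 40, both within the first transcribed bases. Mcm3 held words on both strands, at 20 and 39. Cdc6 and Gins3, which carry the same letters GCGGGAAA, exceeded PBS in each of the 3 batches, and Pold1 and Mcm3, with those letters too, did not, as given below.

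Among the origin licensing genes, Orc1 and Orc6 encode subunits of the origin recognition complex and Cdc6 and Cdt1 the factors that load the helicase. Cdc6 was at 9.52, 15.5 and 22.99 CPM in BMP2 1, 2 and 3 and 8.56, 11.8 and 14.9 CPM in PBS 1, 2 and 3. Each BMP2 library was above the PBS library of its batch, but the groups overlapped. The log2 differences were 0.14, 0.36 and 0.59 in batches 1, 2 and 3, and the log2 fold change was 0.44 (SE 0.36, edgeR adjusted p = 0.883; with the block 0.39, adjusted p = 0.321). That fold change without the block was 0.084 when BMP2 3 was left out, 0.26 when PBS 1 was and 0.71 when BMP2 1 was. Cdt1 was at 5.61, 8.44 and 16.3 CPM in BMP2 1, 2 and 3 and 14.5, 12.3 and 10.96 CPM in PBS 1, 2 and 3. Its 2 lowest libraries and its highest were all BMP2, and its log2 differences of -1.23, -0.50 and 0.54 spanned the widest range between batches of any member. Orc6, the licensing gene with the highest mean level, was at 29.7, 21.1 and 27.7 CPM in BMP2 1, 2 and 3 and 36.1, 22.5 and 23.4 CPM in PBS 1, 2 and 3, with PBS 1 highest. For Orc6 the log2 fold change was -0.063 (SE 0.25, edgeR adjusted p = 0.971). Orc1, at 2.57 to 4.49 CPM, was the least abundant member also per length, at 0.994 CPM per kb of exon against 77.1 for the highest, Rrm2. The 4 genes' median differences were -0.19, -0.068 and 0.38 in batches 1, 2 and 3, and all 4 were higher in batch 3.

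Mcm2 to Mcm7 encode the 6 subunits of the helicase ring. Mcm2 (chr6:88883474-88898780 in GENCODE M21 on GRCm38, as for the genes below) was at 64.9, 116 and 210.0 CPM in BMP2 1, 2 and 3 and 87.2, 106 and 139 CPM in PBS 1, 2 and 3. BMP2 3 was the highest library and BMP2 1 the lowest, so the BMP2 group enclosed the PBS group. Mcm3 was at 66.9, 94.6 and 133 CPM in BMP2 1, 2 and 3 and 77.2, 75.8 and 94.7 CPM in PBS 1, 2 and 3, in the same order at both ends. The other 4 ranged from 24.4 to 51.9 CPM for Mcm4 to 57.5 to 133 CPM for Mcm6, with Mcm5 at 50.4 to 103 CPM and Mcm7 at 54.9 to 78.2 CPM. All 6 were lower with BMP2 in batch 1 and higher in batches 2 and 3, with median log2 differences of -0.35, 0.11 and 0.45. BMP2 1 was the lowest library for all 6, and BMP2 3 the highest for 5, Mcm7 being highest in PBS 1. Summed over the ring, the level was 319, 459 and 706 CPM in BMP2 1, 2 and 3 and 413, 405 and 512 CPM in PBS 1, 2 and 3. Per kb of exon the subunits lay between 9.65 for Mcm4 and 24.1 CPM for Mcm3. The log2 fold changes without the block ran from -0.067 for Mcm7 to 0.25 for Mcm3 (SE 0.26, edgeR adjusted p = 0.892), and that of Mcm2 was 0.23 with BMP2 3 and -0.30 without it. Mcm3 turned to -0.034 without BMP2 3. The level of Mcm7 is uncertain, since 33.4% of the 31-base words of its transcripts are shared with other genes, 24.4% with Gm5487.

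The helicase is switched on by Cdc45 and the GINS subunits Gins1, Gins2 and Gins3, with help from Mcm10. Cdc45 was at 16.7, 23.01 and 28.9 CPM in BMP2 1, 2 and 3 and 29.5, 21.6 and 21.8 CPM in PBS 1, 2 and 3. PBS 1 and BMP2 3 were high and BMP2 1 low, and the groups overlapped, with log2 differences of -0.78, 0.090 and 0.39 by batch. Gins3 was at 7.70, 9.31 and 11.1 CPM in BMP2 1, 2 and 3 and 6.05, 7.67 and 8.38 CPM in PBS 1, 2 and 3. It was higher with BMP2 in each batch by a similar size, 0.30, 0.25 and 0.37, while the groups overlapped, with batch 1 lowest in either. In the fit without the block Gins3 had a log2 fold change of 0.35 (SE 0.26, edgeR adjusted p = 0.883), and 0.20 when BMP2 3 was left out. Mcm10, at 13.8 to 21.97 CPM, Gins1, at 4.59 to 6.54 CPM, and Gins2, at 12.1 to 23.7 CPM, were each highest or second highest in BMP2 3. All 5 genes were higher with BMP2 in batch 3 and 4 were lower in batch 1, with medians of -0.25, 0.14 and 0.38 over the batches. The level of Gins2 is uncertain, since 67.3% of its exon bases lie opposite exons of other genes, the largest overlap being with Gse1.

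The clamp Pcna, the loader subunits Rfc2, Rfc3 and Rfc4 and the single-strand binding proteins Rpa1 and Rpa2 form the next group. Rpa1, the most abundant member by CPM, was at 309, 259 and 217 CPM in BMP2 1, 2 and 3 and 424, 304 and 224 CPM in PBS 1, 2 and 3. Within either group batch 1 was high and batch 3 low, and BMP2 was below PBS in each batch, with log2 differences of -0.46, -0.23 and -0.050. Its log2 fold change was -0.28 (SE 0.27, edgeR adjusted p = 0.886) and -0.020 without PBS 1, its highest library, against -0.47 without PBS 3. Rpa2, its partner in the same complex, was at 12.9 to 20.9 CPM and differed by -0.20, 0.11 and 0.47. Pcna was at 159.9, 154 and 221 CPM in BMP2 1, 2 and 3 and 157, 129.7 and 174 CPM in PBS 1, 2 and 3. It was higher with BMP2 in each batch, by 0.027, 0.24 and 0.34, with overlapping groups, and 23.3% of the 31-base words of its transcripts are shared with the pseudogene Pcna-ps2, which was listed at 0 to 7 counts per library. The loader subunits differed by -0.52 to -0.25 in batch 1 and were higher in batch 3, by 0.21 for Rfc2, 0.47 for Rfc3 and 0.19 for Rfc4. Rfc3 was at 17.99 to 34.5 CPM and Rfc4 at 6.35 to 9.86 CPM. Rfc2 was at 48.4 to 69.6 CPM, and 15.1% of its exon bases lie opposite exons of other genes, the largest overlap being with Lat2.

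At the fork, Pola1 and Prim1 belong to the polymerase and primase that start new strands, Pole and Pold1 are the catalytic subunits that extend them, and Fen1 and Lig1 trim and join the lagging-strand fragments. Lig1, the group's highest by mean, was at 38.99, 51.04 and 53.9 CPM in BMP2 1, 2 and 3 and 72.1, 56.1 and 48.95 CPM in PBS 1, 2 and 3. PBS 1 was the highest and BMP2 1 the lowest, and the difference was -0.87, -0.13 and 0.14 in batches 1, 2 and 3. For Lig1 the log2 fold change was -0.30 (SE 0.22, edgeR adjusted p = 0.883), and -0.14 without PBS 1. Fen1 was at 15.2, 23.8 and 33.7 CPM in BMP2 1, 2 and 3 and 11.7, 21.3 and 24.97 CPM in PBS 1, 2 and 3. Here PBS 1 was the lowest library, BMP2 3 the highest, and BMP2 exceeded PBS in each batch, by 0.35, 0.15 and 0.42. Its log2 fold change was 0.33 (SE 0.37, edgeR adjusted p = 0.894) against 0.064 without PBS 1 and 0.0091 without BMP2 3. Its level is uncertain, since 84.2% of its exon bases lie opposite exons of other genes, the largest overlap being with Gm10143. Pold1 differed by -0.73, -0.13 and 0.040 and Pole by -0.67, 0.22 and 0.50 over the batches. Pola1 was at 14.2 to 28.2 CPM, Prim1 at 16.7 to 27.9 CPM, Pold1 at 14.3 to 24.4 CPM and Pole at 10.1 to 29.2 CPM. The 6 genes' medians of -0.70, 0.19 and 0.27 include the lowest batch 1 median of the 8 role groups.

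For deoxynucleotide synthesis, Tyms, thymidylate synthase, makes dTMP from dUMP, Rrm1 and Rrm2 are the large and small subunit genes of ribonucleotide reductase, and Tk1 salvages thymidine. Tyms (chr5:30058202-30073617) was at 23.04, 31.9 and 48.4 CPM in BMP2 1, 2 and 3 and 14.1, 18.8 and 27.5 CPM in PBS 1, 2 and 3. PBS 1 was the lowest and BMP2 3 the highest, and each BMP2 library exceeded the PBS library of its batch, although the groups overlapped. Group levels were 34.4 ± 12.9 CPM with BMP2 and 20.1 ± 6.83 CPM with PBS (mean ± SD, n = 3 each). The log2 differences of 0.68, 0.73 and 0.79 lay close together, unlike those of most members. Without the block the log2 fold change was 0.77 (SE 0.34, 95% interval -0.015 to 1.56, edgeR adjusted p = 0.883), and with 1 library left out it ran from 0.44 without BMP2 3 to 1.07 without PBS 3. With it the log2 fold change was 0.76 (SE 0.14, interval 0.43 to 1.10, edgeR adjusted p = 0.0798). In batches 2 and 3 alone, with the block, Tyms passed at 0.78 (SE 0.12, adjusted p = 0.0227), the sole member call in any fit run, where 4.11% of tested genes passed. With batch 2 or batch 3 left out it was 0.77 and 0.74 and did not pass (adjusted p = 0.359 and 0.204). Tyms-ps, a pseudogene copy, was listed at 0 to 2 counts, and 11.4% of the 31-base words of Tyms are shared with other genes.

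Rrm2 had the highest level per length of the 40 genes and was at 207, 247 and 219.6 CPM in BMP2 1, 2 and 3 and 277, 171 and 162 CPM in PBS 1, 2 and 3. PBS 1 was the highest and PBS 3 the lowest, so the PBS group enclosed the BMP2 group, and the differences were -0.42, 0.53 and 0.44. Rrm2 had a log2 fold change of 0.15 (SE 0.25, edgeR adjusted p = 0.924) against 0.43 without PBS 1 and 0.010 without PBS 3. Rrm1 was at 134 to 212 CPM and differed by -0.61, 0.27 and 0.082. Tk1, at 56.3 to 75.1 CPM, varied least of all members, by 1.33 times between its lowest and highest library, whereas Tyms varied most, by 3.44 times. The median over the 40 genes was 1.88 times and over all tested genes 1.99 times.

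**Figure D4:**
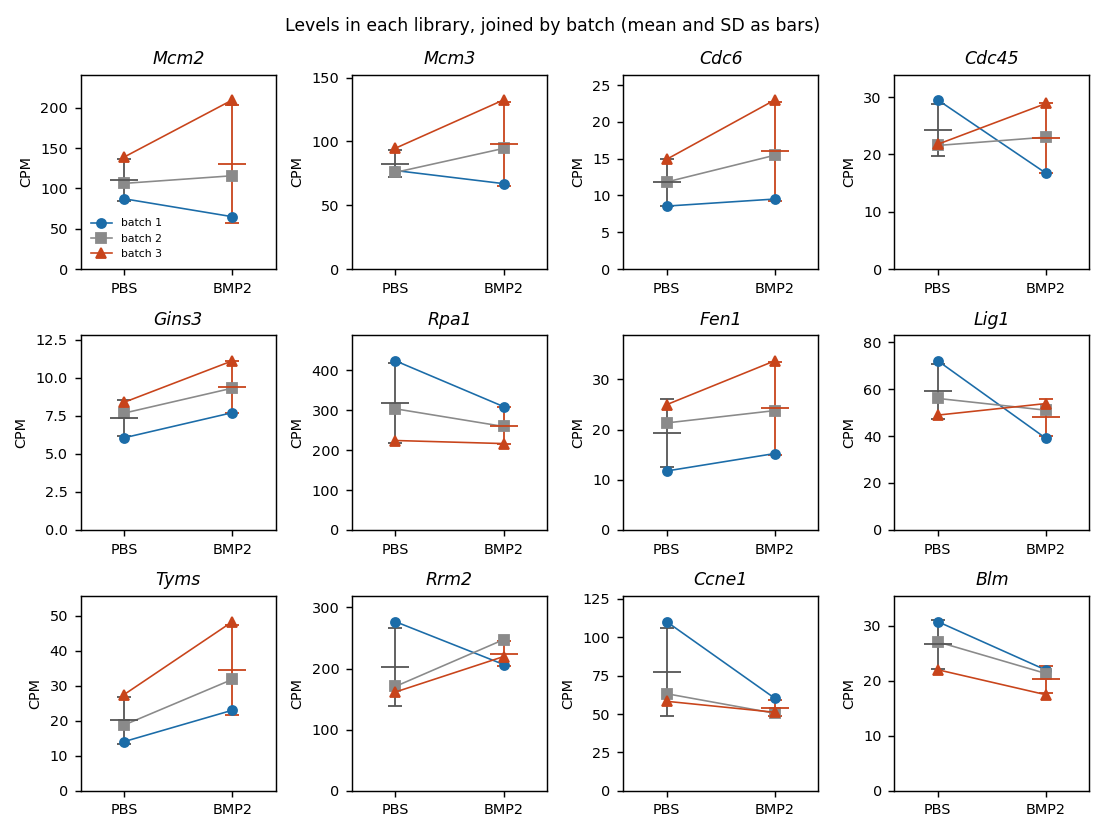
CPM (vertical axes, from 0) of 12 members in PBS and BMP2 libraries, with lines joining the 2 libraries of a batch and horizontal marks with error bars for the mean and SD of 3 libraries. The 3 lines of Tyms and Gins3 run upward side by side and those of Blm and Ccne1 downward, while the lines of Mcm2, Cdc45, Lig1 and Rrm2 cross or diverge.

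The G1/S regulators comprise the cyclins Ccne1 and Ccne2, which activate the kinase that triggers S phase, the transcription factor E2f1, and Dtl, which directs the destruction of CDT1 during S phase. Ccne1 (chr7:38097984-38107534) was at 60.2, 50.5 and 51.1 CPM in BMP2 1, 2 and 3 and 110.2, 63.2 and 58.3 CPM in PBS 1, 2 and 3. PBS 1 was far above the other 5 libraries, and BMP2 was lower in each batch, with log2 differences of -0.86, -0.32 and -0.19 and an overlap between BMP2 1 and PBS 3. Without the block the log2 fold change of Ccne1 was -0.52 (SE 0.27, edgeR adjusted p = 0.883), and -0.18 when PBS 1 was left out. With the block it was -0.46 (SE 0.16, interval -0.85 to -0.071, adjusted p = 0.247). Ccne2, the other cyclin E, was at 11.7, 13.2 and 18.2 CPM in BMP2 1, 2 and 3 and 9.86, 9.33 and 16.7 CPM in PBS 1, 2 and 3 and lay above PBS in each batch, by 0.23, 0.46 and 0.12. Its log2 fold change was 0.27 (SE 0.31, edgeR adjusted p = 0.894), at 0.057 without BMP2 3 and 0.59 without PBS 3. Whether the 2 cyclins differ in response was not tested. Of the exon bases of Ccne2, 17.4% lie opposite exons of other genes, the largest overlap being with Ints8. E2f1 was at 35.7 to 53.2 CPM, with BMP2 1 lowest and BMP2 2 highest. Dtl, at 20.6 to 39.6 CPM, was highest in PBS 1.

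Among the genes of chromatin, histone supply and fork repair, Uhrf1 recognises half-methylated DNA behind the fork, Chaf1a and Chaf1b belong to the chromatin assembly factor, Slbp binds histone messages, and Blm is a RecQ helicase that resolves stalled and recombining forks. Uhrf1 was at 38.6, 51.8 and 81.97 CPM in BMP2 1, 2 and 3 and 68.6, 57.1 and 68.2 CPM in PBS 1, 2 and 3. BMP2 1 was the lowest and BMP2 3 the highest, and the differences were -0.81, -0.14 and 0.26. For Uhrf1 the log2 fold change was -0.17 (SE 0.28, edgeR adjusted p = 0.921), against -0.52 without BMP2 3 and 0.050 without BMP2 1. The level of Uhrf1 is uncertain, since 24.2% of the 31-base words of its transcripts are shared with other genes, 21.9% with Gm5648. Blm (chr7:80454733-80535119) was at 21.9, 21.3 and 17.4 CPM in BMP2 1, 2 and 3 and 30.7, 27.04 and 21.98 CPM in PBS 1, 2 and 3. All 3 BMP2 libraries were below all 3 PBS libraries, though BMP2 1 and PBS 3 all but met, and the differences of -0.47, -0.33 and -0.32 were alike in the 3 batches. Group levels of Blm were 20.2 ± 2.43 CPM with BMP2 and 26.6 ± 4.38 CPM with PBS (mean ± SD, n = 3 each). Its log2 fold change was -0.40 (SE 0.21, edgeR adjusted p = 0.883) and with the block -0.39 (SE 0.15, interval -0.74 to -0.040, adjusted p = 0.263). Chaf1b differed by 0.13, 0.14 and 0.29 and Chaf1a, its partner, by -0.91, 0.11 and 0.28. Of the exon bases of Chaf1a, however, 52.5% lie opposite exons of other genes, the largest overlap being with Ubxn6. Slbp was at 32.6 to 49.8 CPM.

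Other genes of DNA replication, 105 in 6 lists chosen by function, set these values in context, and 103 of the 104 found in the table were tested. Without the block 0 of the 103 passed in edgeR's test, against 0.0464% of all tested genes, with 3 at an unadjusted p under 0.05 (5.38% of all). With the block 0 rose and 1 fell, where 0.735% of all tested genes passed, with 8 at an unadjusted p under 0.05 (17.0% of all). The 1 gene was Orc4, a further subunit of the origin recognition complex, at 57.1, 34.9 and 26.6 CPM in BMP2 1, 2 and 3 and 104, 62.5 and 56.9 CPM in PBS 1, 2 and 3. Each batch was lower with BMP2, with log2 differences of -0.85, -0.82 and -1.07, although BMP2 1 lay just above PBS 3. The log2 fold change of Orc4 with the block was -0.93 (SE 0.13, edgeR adjusted p = 0.0379) and without it -0.91 (adjusted p = 0.852). The call with the block was lost when batch 2 was left out (-0.98, adjusted p = 0.207). Medians of the 103 genes were -0.099, 0.096 and 0.18 in batches 1, 2 and 3, with the signs of the members' medians and smaller sizes.

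Within those lists, the genes nearest to the threshold with the block were named. Of the origin and helicase genes, Mtbp, which helps to fire origins, had a log2 fold change of 0.47 (edgeR with the block, adjusted p = 0.279) and Ticrr, its partner in that step, -0.52 (0.424). Among polymerase and clamp genes, Pole2 and Pole4, subunits of polymerase epsilon, had 0.42 (0.285) and 0.31 (0.288), and Dscc1, of an alternative clamp loader, 0.54 (0.341). For nucleotide supply, the kinases Cmpk1 and Tk2 had 0.38 (0.232) and 0.34 (0.302), and the dUTPase Dut, which makes the substrate of thymidylate synthase, -0.21 (0.417). Among E2F and retinoblastoma regulators, Rb1, the brake on E2F, had -0.62 (0.150), Tfdp1, the dimer partner of E2F, 0.37 (0.252) and E2f2, an activating E2F, 0.82 (0.265). Rb1 was lower with BMP2 in all 3 batches (-0.48, -0.40 and -0.95) and Tfdp1 and E2f2 were higher in all 3 (0.47, 0.17 and 0.44 and 0.36, 1.46 and 0.33). In the chromatin list the histone binders Rbbp7 and Nasp had -0.12 (0.649) and 0.14 (0.656), and Cdca7 0.18 (0.754). In the checkpoint and recombination list Fanci and Rad54l, genes of crosslink repair and homologous recombination, had 0.36 (0.315) and 0.32 (0.462).

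Genes of G2 and mitosis, which follow S phase, were set beside the members. PBS 1 was the highest library for 35% of the members, near the 29.7% of all tested genes. Of the 30 genes of G2 and mitosis, 26 (86.7%) were highest in PBS 1. Their summed level there was 3978 CPM against 1713 to 2053 CPM in the other 5 libraries. Top2a, the topoisomerase that untangles chromosomes, was at 236, 239 and 248 CPM in BMP2 1, 2 and 3 and 721, 237 and 216 CPM in PBS 1, 2 and 3. Its level in PBS 1 was far above the rest, which lay close together. The medians of the 30 genes were -0.96, -0.018 and 0.12 in batches 1, 2 and 3, and 0 of the 30 passed in edgeR's test with or without the block. At an unadjusted p under 0.05 there were 2 without the block and 3 with it, against 5.38% and 17.0% of all tested genes. By summed level the members' role groups differed in PBS 1. The helicase subunits were at 413 CPM there, against 405 and 512 CPM in PBS 2 and 3. The clamp, loader and single-strand binding group was highest in PBS 1, at 711 CPM against 492 to 566 CPM in the other libraries. So were the G1/S regulators, at 206 against 135 to 145 CPM, and the deoxynucleotide genes, at 562 against 411 to 555 CPM. The other role groups were highest in BMP2 3. Without PBS 1 the median log2 fold change of the 40 genes was 0.090, against 0.11 with all 6 libraries. It was -0.15 without BMP2 3 and -0.014 without PBS 2, so its direction rested on those libraries.

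**Figure D5:**
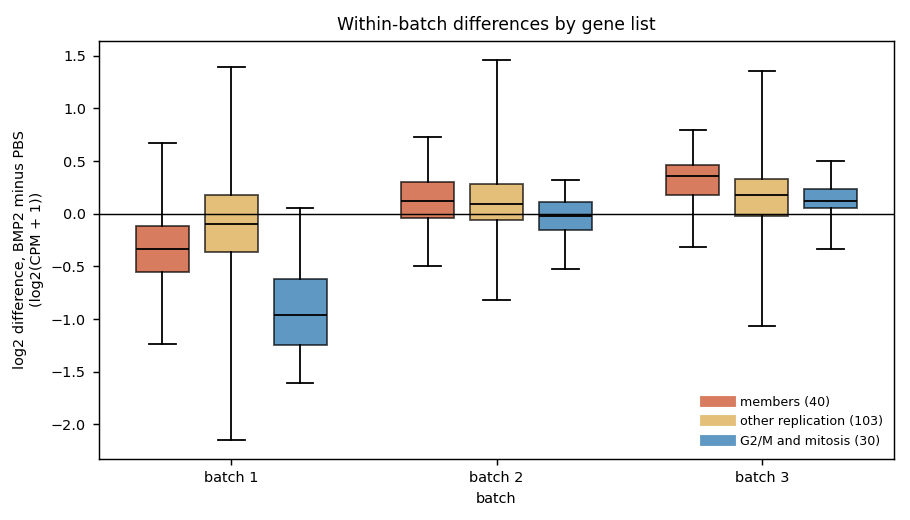
Difference in log2(CPM + 1) between the BMP2 and PBS library of each batch (vertical axis) for the 40 members, 103 other replication genes and 30 genes of G2 and mitosis, with boxes from the lower to the upper quartile, a line at the median and whiskers to the extremes. In batch 1 the medians lie at -0.34, -0.099 and -0.96, and in batch 3 at 0.36, 0.18 and 0.12.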

How the data were processed

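The estimated counts per gene were deposited by the authors, and the submitters' processing notes name kallisto 0.44.0 and GRCm38.p6. No source used here states the annotation, the strand setting or the summing to genes. Samples titled as untreated received PBS per the labels' protocols. Kallisto splits reads between transcripts that share sequence, so members with near copies are uncertain. Exon overlap and the 31-base words shared with other genes were counted over GENCODE M21 transcripts, and 21 of 40 members shared under 5% of theirs. Symbols came from identifiers, and 34600 of 34981 matched. Estimated counts were rounded and tested with edgeR 4.0.16 in R 4.3.3 (default filter, TMM, quasi-likelihood test, Benjamini-Hochberg over 12929 genes), with 1 library per group and batch. Without the block the p-values set the group difference against the spread between the 3 libraries of a group. With the block they set it against how far the difference varied between the 3 batches. The batch labels pair the libraries, and deviations from group means correlated at 0.51, 0.25 and 0.52 within batches and from -0.51 to 0.026 between them. The 3 deviations of a group sum to 0 for each gene, so positive values within batches bring lower ones between them. SE values were derived from the F statistic. Alternatives were DESeq2 1.42.0, limma 3.58.1 after quantile normalization, other filters, added counts of the Pcna and Tyms pseudogenes, and leaving out libraries or batches.

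The members and lists were chosen with earlier results of these data known. Genes named with full values were, per role group, the highest by mean CPM and the smallest p in either fit, and per other list the 3 smallest p with the block, of which 1 gene is not reported here. Further members are given by range, and Cdt1, Pcna, Ccne2, Top2a, Vwf, Postn, Cd68 and batch differences of others were chosen after their values were seen. Exon length is the union of exons in GENCODE M21. Recql4, Krt8, Krt18 and Krt5 were not analysed here.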

Additional observations from a re-analysis of the deposited data

How the results depend on the processing

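No member was called in any fit with 3 libraries per group or with 1 library left out. Across fits with a library or batch left out, 0 to 1 members were called, the 1 being Tyms with batch 1 left out under the replicate block. With all 6 libraries the replicate block changed no call of a member; over all genes it raised the calls from 6 to 95, Orc4 among them. Of the 40 log2 fold changes, 16 kept their sign in all 16 alternatives, 24 reversed when some library or batch was left out and 5 in another fit. Without the block, Orc1, Rfc2, Rfc3 and Dtl of these 5 were near 0, at 0.014, -0.0026, -0.0211 and -0.0296, and Pole was at 0.1325. Orc1 went to -0.0038 with the block, -0.0002 with DESeq2 size factors and -0.0901 after quantile normalization. Rfc2 went to 0.0059 with the block, 0.0243 after quantile normalization and 0.017 with no filter. Rfc3 went to 0.0297, 0.0128 and 0.0003 likewise. Dtl went to 0.0203 with the block and 0.0018 after quantile normalization. Pole went to -0.042 after quantile normalization. The cause was not tested. With a library or batch left out, these log2 fold changes ranged as follows: Mcm2 -0.297 to 0.5556, Mcm3 -0.0343 to 0.4608, Mcm4 -0.1548 to 0.4052, Mcm5 -0.1726 to 0.3518, Mcm6 -0.2456 to 0.4003, Mcm7 -0.2065 to 0.1404, Orc1 -0.2215 to 0.1798 and Orc6 -0.1867 to 0.183. Likewise the ranges were Cdt1 -0.9568 to 0.0146, Mcm10 -0.0238 to 0.2671, Cdc45 -0.3629 to 0.2443, Gins1 -0.2379 to 0.0449, Rfc2 -0.1517 to 0.2603, Rfc3 -0.2018 to 0.3405, Rfc4 -0.0386 to 0.323 and Rpa2 -0.0692 to 0.3053. The remaining ranges were Pola1 -0.303 to 0.2431, Pole -0.308 to 0.4383, Rrm1 -0.2614 to 0.17, Dtl -0.2412 to 0.3314, Uhrf1 -0.5181 to 0.0555, Chaf1a -0.4543 to 0.1958, Chaf1b -0.1485 to 0.512 and Slbp -0.0336 to 0.2709. The medians within batches were -0.35 to -0.34, 0.10 to 0.12 and 0.35 to 0.37 under 3 other scalings or pseudocounts, chosen after seeing the data. Depth limits Orc1 the most, with the lowest count of any member, 88 in a library. Counts called over all genes ranged more, from 2 when BMP2 3, PBS 2 or PBS 3 was left out to 531 with the block and batch 1 left out. They were 27 and 218 with the block and batch 2 or 3 left out, 130 with DESeq2's Wald test and 35 with no filter.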

Other observations

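A list of quiescence and cell cycle inhibitor genes, which also holds the cyclin gene Ccnd1, had 15 of its 19 genes tested. It included 0 calls in edgeR's test with or without the batch block. At an unadjusted p under 0.05 there were 1 without the block and 7 with it, against 5.38% and 17.0% of all tested genes. The list's medians were -0.18, -0.067 and -0.56 in batches 1, 2 and 3, and those of the members -0.34, 0.12 and 0.36. Both lists had a lower median in batch 1 than in batch 2, and in batch 3 they differed in sign. A relation between the 2 lists was not tested. Cdkn1b, the inhibitor of cyclin E kinase known as p27, was at 570.0, 415 and 249.5 CPM in BMP2 1, 2 and 3 and 843, 686 and 500.3 CPM in PBS 1, 2 and 3. It was lower with BMP2 in each batch, with log2 differences of -0.56, -0.72 and -1.001, overlapping groups and a log2 fold change with the block of -0.76 (adjusted p = 0.0846). Ccnd1, the G1 cyclin that starts phosphorylation of the retinoblastoma protein, was at 77.5, 118 and 192 CPM in BMP2 1, 2 and 3 and 37.6, 91.1 and 93.5 CPM in PBS 1, 2 and 3. It was higher with BMP2 in each batch, by 1.02, 0.37 and 1.03, with a log2 fold change with the block of 0.82 (adjusted p = 0.107). Btg2, an antiproliferative gene, was lower with BMP2 in each batch, with log2 differences of -1.42, -0.76 and -0.57, and both libraries of batch 3 were its lowest.

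Of the mitotic genes, those nearest to the threshold with the block were the checkpoint kinase gene Bub1, the phosphatase gene Cdc25b and Aurkb, the kinase of the chromosomal passenger complex. Their log2 differences in batches 1, 2 and 3 were -0.68, -0.50 and -0.18 for Bub1, -1.39, -0.28 and -0.32 for Cdc25b and -1.20, -0.26 and -0.14 for Aurkb. All 3 were highest in PBS 1, and their adjusted p with the block was 0.212, 0.247 and 0.283.

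Summed levels of the markers of other cell types were 7.02 to 19.8 CPM for 9 fibroblast genes, 5.068 to 15.9997 CPM for 8 endothelial genes, 2.996 to 6.03 CPM for 8 leukocyte genes and 0.163 to 0.759 CPM for 3 epithelial genes. The fibroblast sum was highest in both libraries of batch 1, at 19.8 CPM with BMP2 and 18.5 CPM with PBS, and its part in the batch 1 values was not tested. The 10 melanocytic genes summed to 29257 to 39879.7 CPM with BMP2 and 23850.3 to 27006 CPM with PBS, and these sums did not overlap. Taken singly, 2 of the 10 genes had groups without overlap, higher with BMP2, against 6.42% of all tested genes. All 10 were higher with BMP2 in each batch, against 22.7%. In edgeR's test 0 of the 10 passed without the block and 1 rose with it, where 0.0464% and 0.735% of all tested genes passed. At an unadjusted p under 0.05 there were 3 without the block and 10 with it, against 5.38% and 17.0% of all tested genes. The part of the 10 genes in the members' values was not tested.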
